A study of Mus musculus with 12 samples.

Results

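Itgax encodes the alpha subunit CD11c of an integrin on myeloid cells, and its level split the 12 libraries of a macrophage RNA-seq series into 6 Itgax-high and 6 Itgax-low libraries. The libraries were chosen by Itgax CPM, the count scaled to the column total, with 75 CPM as the dividing line, and each of the 4 study groups held libraries on both sides. The macrophages were grown from the bone marrow of 8-week-old male mice in M-CSF, the macrophage growth factor, at 50 ng/mL. Both genotypes carried conditional Itga9 alleles with Lyz2, which per the labels' names are Itga9-Lyz2-cHet and Itga9-Lyz2-cKO (cHet and cKO below). No group without such an allele was analysed here, and Lyz2 is the lysozyme gene, whose promoter is commonly used to drive Cre recombinase in myeloid cells. Cells of each genotype were left as controls or were exposed for 2 hours to an agent named Pg in the labels, at a multiplicity of infection written as 1:20. This gave 3 libraries in each of cHet control, cHet Pg, cKO control and cKO Pg. Nothing in the labels tells whether a group's libraries stem from different mice or cultures, so a p-value here reflects only how these libraries vary, possibly for technical reasons.

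Macrophages that differentiate in M-CSF form a mixed population whose members differ in maturity, in lipid loading and in cycling. CD11c pairs with the beta2 subunit, the product of Itgb2, and is known from dendritic cells, alveolar macrophages and lipid-laden macrophages of fatty tissue and plaques. Cholesterol supply is balanced by opposing transcription factors in such cells. LXR alpha, the product of Nr1h3, drives export genes such as Abcg1 when sterols are plentiful, and SREBP2, the product of Srebf2, drives synthesis and uptake when they are scarce.

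Itgax stood at 123 CPM in cHet control 1, against 40.5 and 39.5 in cHet control 2 and 3. In cHet Pg it was 53.7 in library 1 and 127 and 121 in libraries 2 and 3. In cKO control it was 135 in library 1 and 46.9 and 49.2 in libraries 2 and 3, and in cKO Pg 95.5, 111 and 43.9 in libraries 1 to 3. The lowest value on the high side was therefore 95.5 and the highest on the low side 53.7, with no library between them. These values made the split and are a description. Of the 6 control libraries 2 were Itgax-high, and of the 6 Pg libraries 4. Each genotype had 3 of 6.

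Promoters are shown for genes on which the description turns, as the 250 bases before the start, read 5′ to 3′ from RefSeq's table for build GRCm38.p6, the assembly also called mm10. Mmp12 (chr9:7344147-7344396, plus strand) and Cd36 (chr5:17835897-17836146, minus strand) are markers of the split, Ifit3 (chr19:34583279-34583528, plus strand) is an interferon response gene that was higher in Itgax-high libraries, and Hmgcs1 (chr13:119690101-119690350, plus strand) is a cholesterol synthesis gene that was lower. Capitals mark matches, on either strand, to the motifs named after the sequences.
Mmp12: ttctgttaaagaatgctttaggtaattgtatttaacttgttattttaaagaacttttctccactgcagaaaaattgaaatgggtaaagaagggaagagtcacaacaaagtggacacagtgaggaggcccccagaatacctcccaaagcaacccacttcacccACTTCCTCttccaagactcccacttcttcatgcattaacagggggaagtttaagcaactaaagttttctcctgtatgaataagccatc
Cd36: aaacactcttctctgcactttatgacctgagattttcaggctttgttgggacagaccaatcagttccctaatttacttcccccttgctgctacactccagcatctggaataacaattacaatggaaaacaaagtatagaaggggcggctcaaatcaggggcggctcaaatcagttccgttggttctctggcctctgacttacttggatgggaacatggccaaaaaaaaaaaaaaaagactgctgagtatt
Ifit3: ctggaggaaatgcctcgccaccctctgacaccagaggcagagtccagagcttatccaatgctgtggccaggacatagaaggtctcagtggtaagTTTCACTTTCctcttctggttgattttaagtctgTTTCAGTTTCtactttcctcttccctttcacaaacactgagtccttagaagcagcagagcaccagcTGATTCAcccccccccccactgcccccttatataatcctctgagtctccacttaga
Hmgcs1: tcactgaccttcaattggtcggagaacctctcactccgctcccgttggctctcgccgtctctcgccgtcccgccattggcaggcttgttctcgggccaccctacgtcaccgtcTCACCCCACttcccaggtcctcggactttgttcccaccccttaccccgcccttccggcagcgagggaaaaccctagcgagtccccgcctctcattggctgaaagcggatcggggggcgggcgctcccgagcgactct

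The motifs searched were the E-box CACGTG, the AP-1 site TGANTCA, the ETS/PU.1 site GAGGAAGT, the PPAR-RXR repeat made of 2 copies of AGGTCA with 1 base between them, the sterol regulatory element TCACCCCAC and an interferon-stimulated response element made of 2 copies of GAAA with 2 bases between them. The last pair was added after values were seen. In the Mmp12 window the ETS/PU.1 letters lay on the reverse strand, starting 88 bases before the gene start. In the Ifit3 window the interferon element occurred at 156 and 122 bases before the start, both on the reverse strand, and the AP-1 letters at 56 bases. In the Hmgcs1 window the sterol element lay 137 bases before the start, and the Cd36 window held none of the 6. Over all 32851 windows of this length in the table, 6.02% held the E-box, 6.75% the AP-1 site, 2.44% the ETS/PU.1 site, 0.0335% the PPAR-RXR repeat, 2.98% the interferon element and 0.496% the sterol element. Of 25 interferon response genes with an entry 13 held the interferon element. Of 13 cholesterol synthesis genes with an entry 1 held the sterol element, and that gene is the printed Hmgcs1. A match is a description of letters and not a site.

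Mmp12, which encodes the macrophage elastase, gave 822 CPM (here and below TMM-scaled, edgeR's trimmed-mean correction for composition) in the high library cHet control 1, against 306 and 283 in the low libraries 2 and 3. In cHet Pg it gave 546 in the low library 1 and 1206 and 1096 in the high libraries 2 and 3. In cKO control it was 911 in the high library 1 and 322 and 281 in libraries 2 and 3, and in cKO Pg 777 and 934 in the high libraries 1 and 2 and 391 in library 3. High and low libraries did not overlap in any group, and the log2 difference adjusted for group was 1.32 ± 0.10 (SE, 6 against 6 libraries). Mmp12 lies at chr9:7344381-7369499 on the plus strand in the deposited mm10 annotation.

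Cd36, the scavenger receptor for long-chain fatty acids and oxidised lipoproteins, was 964 CPM in the high library of cHet control and 358 and 336 in the low ones. In cHet Pg it was 585 in the low library and 1237 and 1194 in the high ones. In cKO control it was 955 against 340 and 340, and in cKO Pg 954 and 1042 against 540. Its lowest high library (954) thus exceeded its highest low library (585) across all groups, with a log2 difference of 1.23 ± 0.10. Atp6v0d2, the d2 subunit of the lysosomal proton pump that is linked to osteoclasts, was 202, 212 and 190 to 224 CPM in the high libraries of cHet control, cKO control and the Pg groups. In the low libraries it ran from 74.0 to 108, and the log2 difference was 1.25 ± 0.06. The usual d subunit of the same pump, Atp6v0d1, showed a log2 difference of -0.02 ± 0.04.

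**Figure D1:**
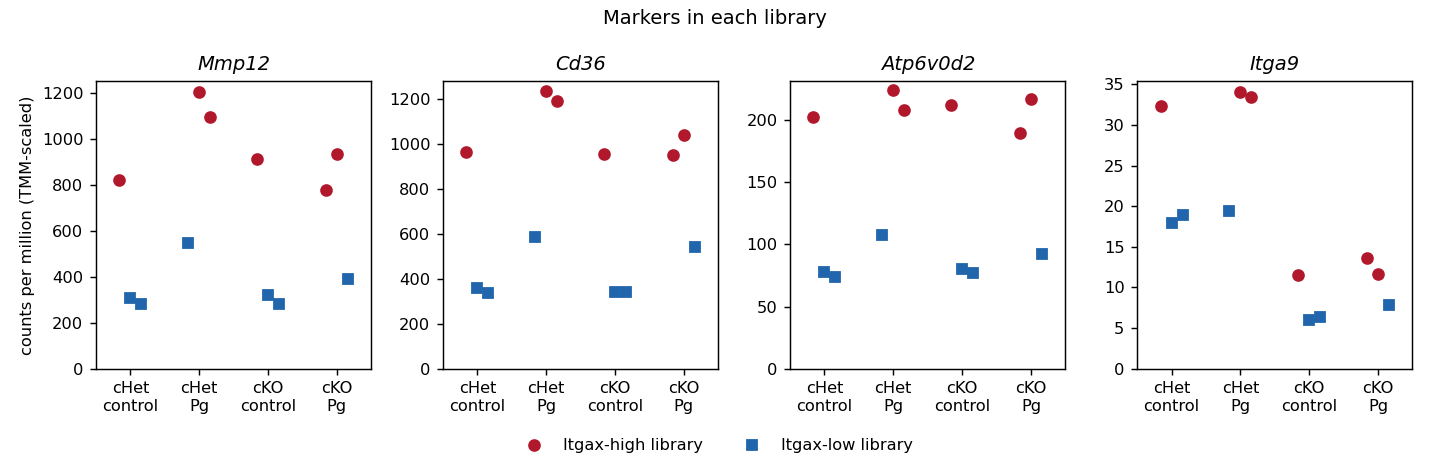
TMM-scaled CPM of Mmp12, Cd36, Atp6v0d2 and Itga9 in each of the 12 libraries (1 point each), by study group. Circles are Itgax-high and squares Itgax-low libraries. For Mmp12 the high libraries lie between 777 and 1206 and the low libraries between 281 and 546. Itga9 is ordered by class within each genotype but not across genotypes.

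Itga9, the gene of the conditional allele and the alpha chain of integrin alpha9beta1, was also ordered by the split within each genotype. It gave 32.3 CPM in the high and 17.9 and 18.9 in the low libraries of cHet control, and 34.0 and 33.4 against 19.4 in cHet Pg. In cKO control it was 11.5 against 5.98 and 6.42, and in cKO Pg 13.6 and 11.6 against 7.84. The log2 difference between classes was 0.80 ± 0.08, with no overlap in any of the 4 groups. The genotype effect on Itga9, which the split did not use, was a log2 change of -1.46 ± 0.07 in cKO against cHet (edgeR quasi-likelihood test, Benjamini-Hochberg adjusted p = 7.4e-16). It was -1.46 ± 0.26 (adjusted p = 0.012) in the fit without the class. Which part of Itga9 the allele removes is not given in the sources used here, so reads outside it are no check of the labels. Lyz2, the lysozyme gene named in the allele, was lower in high libraries by a log2 difference of -0.22 ± 0.03, and in cKO by -0.96 ± 0.03 (adjusted p = 4.3e-21).

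Across the 13799 genes that passed the low-count filter, Itgax left out, 1213 genes (8.79%) were higher and 1129 (8.18%) were lower in Itgax-high libraries at an adjusted p below 0.05 in edgeR. Such a gene is said to be called below. These shares of all genes are the background for every list count from the same fit. The split was made from these counts, so a call sorts genes for description and is not a test. In 1263 genes (9.15%) every high library exceeded every low library in each of the 4 groups, and in 1175 (8.52%) every high library was below. Across groups, every high library lay above every low library in 263 of the 13799 genes and below in 179. Genes said here to be free of overlap across all groups are among these. Only 76 called genes were at least 2-fold higher and 27 at least 2-fold lower. The median log2 difference of all genes was -0.01. Where a list's count is also given from another fit, the counts over all genes in that fit, higher then lower, were 923 and 938 in the Pg libraries alone, 689 and 551 in the cHet libraries alone, 515 and 406 in the cKO libraries alone and 983 and 916 with the replicate number as a further term. With 1 library left out they were 952 to 1221 and 753 to 1084.

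Library totals were 14527674 to 16793803 counts. Differences between classes in total counts (504212, p = 0.259), in genes detected (25.1, p = 0.864), in the share of the 10 most abundant genes (0.401 percentage points, p = 0.0494) and in the mitochondrial share (-0.0075 points, p = 0.951) were tested by exact two-sided permutation of classes within groups. The 81 allocations of this permutation test allow no p below 0.0123, and after adjustment over the 4 measures the exact permutation p of the top 10 share was 0.198. On the first principal component of group-centred values (2000 most variable genes without Itgax, 25.6% of variance), high libraries scored 4.22 and above and low libraries -5.89 and below. Within groups, the chi-square per gene between 2 libraries was 2.59 to 5.31 for the 4 pairs of one class and 12.8 to 17.2 for the 8 pairs across classes. No pair agreed within sampling noise, and all 12 libraries were kept.

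**Figure D2:**
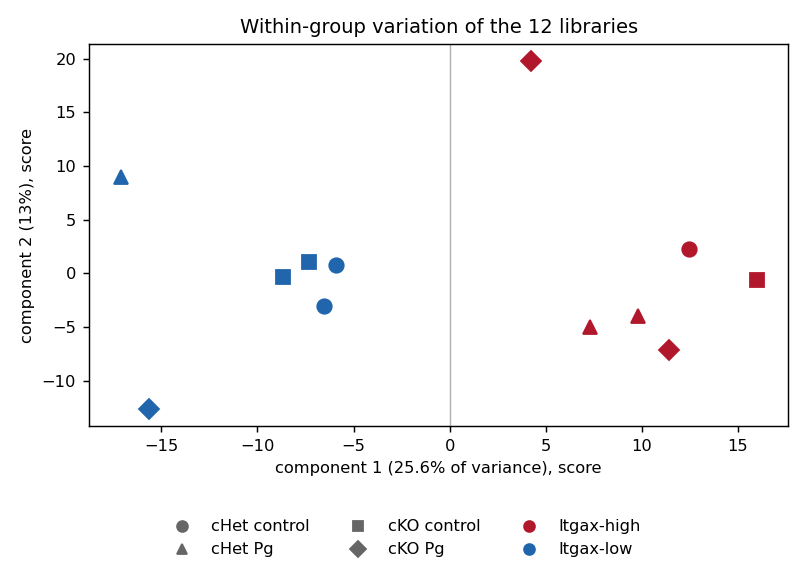
Scores of the 12 libraries on the first and second principal components of log2 CPM after subtracting each group's mean, in arbitrary units. Shape gives the group and colour the Itgax class. The 6 high libraries lie at 4.22 or above and the 6 low libraries at -5.89 or below on component 1.

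Lipid-handling genes were mostly higher in Itgax-high libraries: of 24 tested, 18 were called higher and 1 lower, with a median log2 difference of 0.37. Nr1h3, the gene of LXR alpha, was 59.0 CPM in the high and 29.5 and 28.5 in the low libraries of cHet control, and 38.7 and 42.6 against 19.4 in cHet Pg. In cKO it was 61.0 against 30.6 and 26.1 in controls, and 40.5 and 36.2 against 17.1 under Pg. High and low libraries did not overlap in any group, and the log2 difference was 1.09 ± 0.06. The sterol exporter Abcg1 was 157 and 158 in the high control libraries against 106 to 117 in the low ones, and 104 to 113 against 69.1 and 68.5 under Pg (0.56 ± 0.04).

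The group's other high members covered uptake, storage and breakdown. Lpl, the secreted lipoprotein lipase, had a log2 difference of 0.80 ± 0.07, Pparg, the fatty-acid sensing nuclear receptor, 0.76 ± 0.08, and Angptl4, a lipase inhibitor, 0.85 ± 0.15. Apoe, which carries lipid out of macrophages, had 0.47 ± 0.04. Plin2, the lipid droplet coat protein, was 1212 to 1295 CPM in the 6 high libraries and 851 to 1061 in the low ones (0.44 ± 0.04). Fabp5, a fatty acid carrier, was 809 to 871 against 543 to 730 (0.43 ± 0.04). Both ranges are free of overlap across all groups. Trem2, the lipid-sensing receptor, differed by 0.16 ± 0.04, and the ABC transporter gene Abca1, which also exports sterol, by 0.04 ± 0.03 without a call. Scd2, a fatty acid desaturase, was the member that was lower (-0.42 ± 0.04).

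Cholesterol synthesis genes went the other way, with 17 of 20 called lower, 0 called higher and a median log2 difference of -0.50. Hmgcs1, the cytosolic HMG-CoA synthase whose promoter is printed above, was 86.9 CPM in the high and 148 and 135 in the low libraries of cHet control, and 84.6 and 82.4 against 125 in cHet Pg. In cKO it was 84.1 against 133 and 148 in controls and 69.3 and 77.7 against 115 under Pg. All 6 high libraries (at most 86.9) were below all 6 low libraries (at least 115), and the log2 difference was -0.67 ± 0.05.

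Stard4, a sterol carrier gene, was 34.0 and 34.0 in the high against 52.9 to 61.9 in the low control libraries, and 21.0 to 25.1 against 37.0 and 36.2 under Pg (-0.70 ± 0.06). High and low libraries did not overlap in any group. Idi1, an isomerase of the pathway, differed by -0.87 ± 0.10, Cyp51, a sterol demethylase, by -0.85 ± 0.08 and Srebf2 by -0.36 ± 0.04. Fdps (-0.63) and Mvk (-0.20) were not called, and Dhcr7 was at 0.18 without a call although its high and low libraries were the list's only pair of ranges in the upward direction that did not overlap in any group. Of these 20 genes, 1 passed the edgeR interaction test of a difference between Pg and control in the high-low gap (Insig1, 0.25 ± 0.07, adjusted p = 0.038). Over all genes 0.659% had a higher and 1.83% a lower gap under Pg by this test, so the count is no result about the list. The dependence of the Insig1 value on single libraries was not checked.

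**Figure D3:**
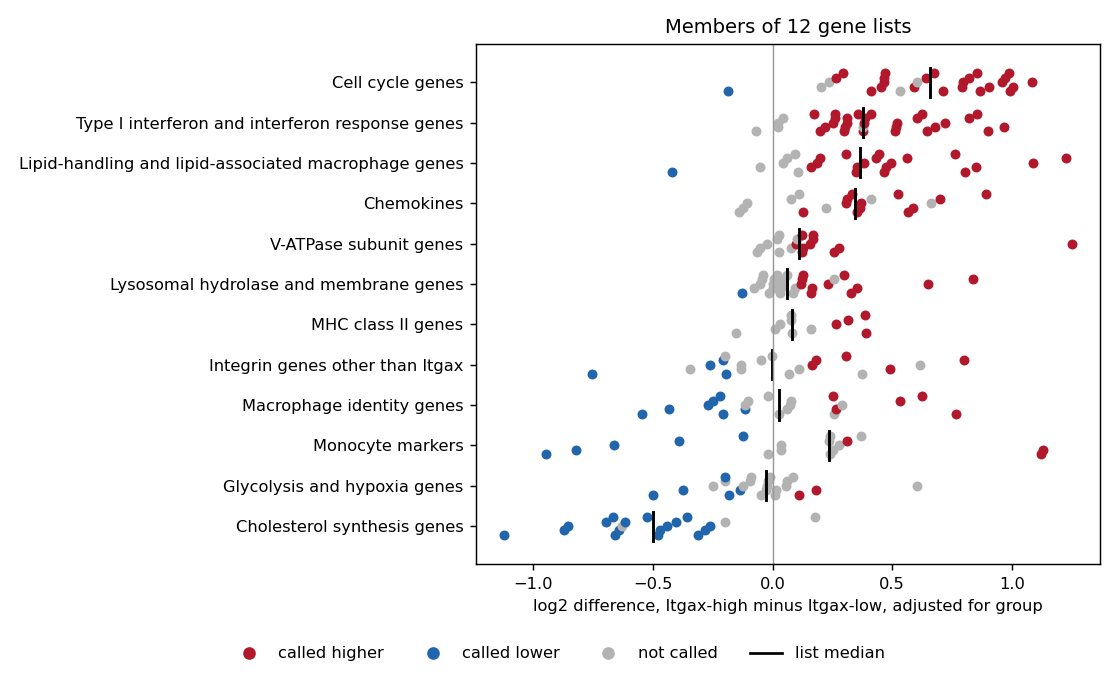
Log2 difference between Itgax-high and Itgax-low libraries, adjusted for group, for each tested member of 12 gene lists (1 point a gene). Red and blue points are called higher and lower, grey points are not called and black bars are list medians. The cell cycle, interferon and lipid lists have medians of 0.66, 0.38 and 0.37 and the cholesterol synthesis list a median of -0.50.

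Cell cycle genes had the highest median of the lists drawn, 0.66, with 23 of 28 called higher and 1 lower. Rrm2, the small subunit of ribonucleotide reductase, was 13.7 to 16.4 CPM in the 6 high and 6.47 to 8.56 in the 6 low libraries (0.99 ± 0.09). Mcm5, a subunit of the replicative helicase, was 18.3 to 24.2 against 10.7 to 14.0 (0.85 ± 0.08), and Top2a, topoisomerase II alpha, 31.2 to 35.8 against 17.8 to 22.1 (0.71 ± 0.07). None of these 3 overlapped between classes in any group or across groups. Over all genes 263 were free of overlap across groups in the same direction. Pcna, the replication clamp, was 185 and 188 against 120 to 130 in controls and 223 to 277 against 192 and 200 under Pg (0.45 ± 0.05). The mitotic genes Ccna2 (1.08 ± 0.15) and Plk1 (1.00 ± 0.17) were also called higher. Mki67, the gene of the proliferation antigen Ki-67, was the exception at -0.19 ± 0.04. In the 6 cKO libraries alone 14 genes of the list were called higher, beside 515 of all genes in that fit.

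Interferon response genes were higher in Itgax-high libraries for 27 of 32 members, with 0 lower and a median of 0.38. Only 13 members had every high library above every low library in each of the 4 groups, beside 9.15% of all genes. By the interaction test described below, the high-low difference was lower under Pg for 4 members (1.83% of all genes) and higher for 0 (0.659%). Oasl1, an oligoadenylate synthetase-like protein, was 97.3 and 95.6 CPM in the high control libraries against 44.4 to 53.9 in the low ones. Under Pg it was 65.8 and 64.4 against 30.1 in cHet, and 40.4 and 33.9 against 21.5 in cKO (0.97 ± 0.06). Ifit3, an RNA-binding antiviral protein whose promoter is printed above, was 88.8 and 99.6 against 44.9 to 56.1 in controls, and 14.4 to 23.0 against 10.9 and 11.5 under Pg (0.86 ± 0.08). Ifit3b is a near copy of Ifit3, so the split of reads between them is uncertain. Ifih1, the cytosolic RNA sensor MDA5, differed by 0.36 ± 0.05. Of the 5 members not called, Irf9 was at -0.07 ± 0.07.

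The same list moved with Pg in the fit that holds the class constant: 30 of 32 members fell and 1 rose, beside 26.3% of all genes that fell and 25.7% that rose. Ifit3 changed by a log2 value of -2.27 ± 0.08 (edgeR, adjusted p = 8.3e-15) and Oasl1 by -0.96 ± 0.06 (adjusted p = 2.0e-14). Without the class in the fit, the Ifit3 value was -2.01 ± 0.30 (adjusted p = 0.00051) and that of Oasl1 was -0.65 ± 0.32, which did not pass (adjusted p = 0.13). In the Pg libraries alone 8 members of the list were called higher and 1 lower by class, beside 923 and 938 of all genes in that fit. In the cKO libraries alone 10 were called higher, beside 515 of all genes.

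**Figure D4:**
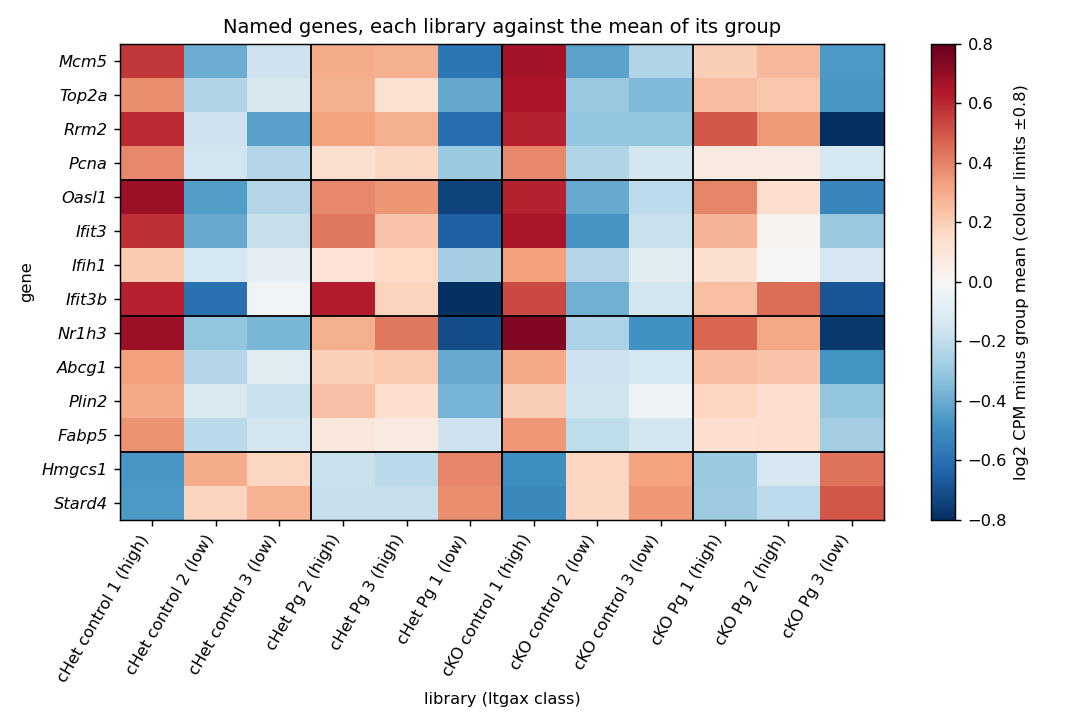
Log2 CPM minus the mean of the library's own group, for 14 genes (rows) in the 12 libraries (columns, ordered by group with high libraries first). Rows are 4 cell cycle, 4 interferon, 4 lipid and 2 cholesterol synthesis genes from top to bottom, and colours are limited to 0.8 in either direction. A group's single library of one class is the strongest colour in its group in most rows, since the mean is drawn toward the 2 libraries of the other class.

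Genes of degradation and bone resorption were partly higher. Of 18 V-ATPase subunit genes 10 were called higher and 0 lower, but the median was 0.11 and the next largest difference after Atp6v0d2 was 0.28, for Atp6v1b2. That count was 4 without cKO control 1, 4 in the Pg libraries alone, 4 in the cHet libraries alone, 3 in the cKO libraries alone and 4 with the replicate number as a further term. Of 29 lysosomal genes 11 were higher and 1 lower, led by the cathepsins Ctsk (0.84 ± 0.08) and Ctsl (0.65), and in the cHet libraries alone 5 were higher. Of 15 osteoclast and fusion genes 5 were higher and 0 lower. Acp5, the tartrate-resistant acid phosphatase of osteoclasts, was 57.0 and 60.3 CPM in the high and 20.1 to 24.6 in the low control libraries, and 135 to 158 against 80.6 and 97.4 under Pg (0.99 ± 0.12). The fusion genes Dcstamp (0.39) and Ocstamp (0.07) were not called. Of 13 metalloproteinase and inhibitor genes 5 were higher, among them Mmp14 (0.64), and 1 was lower, the inhibitor Timp1 (-0.95 ± 0.18).

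Integrin genes other than Itgax were divided, with 5 of 19 called higher and 4 lower. Itgb2, the partner chain of Itgax, was 735 and 793 CPM in the high and 558 to 595 in the low control libraries, and 912 to 989 against 796 and 844 under Pg (0.31 ± 0.04). Itgb3 differed by 0.49 ± 0.08, while Itgam, which encodes the related alpha chain CD11b, was lower (-0.21 ± 0.05). Itga4 (-0.26 ± 0.04) and Itga6 (-0.20 ± 0.04) were lower too. Itgb1, the partner of Itga9, showed 0.00 ± 0.04. Among 13 ligand genes of integrin alpha9beta1, 3 were higher and 3 lower. Fn1, fibronectin, was 57.8 to 128 in high and 30.5 to 53.8 in low libraries (1.12 ± 0.06), Spp1, osteopontin, differed by 0.30 ± 0.06 and Thbs1, thrombospondin 1, by -0.36 ± 0.05.

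Of 21 macrophage identity genes, which had a summed level of 22376 to 34432 CPM in high and 24597 to 39073 in low libraries, 5 were higher and 7 lower. Axl, a receptor for dying cells, was 332 to 429 CPM in high and 176 to 274 in low libraries (0.77 ± 0.05). Cebpa, a myeloid transcription factor, differed by 0.63 ± 0.05. Cd14, the lipopolysaccharide co-receptor, was 753 and 764 in the high against 999 to 1172 in the low control libraries, and 2062 to 2217 against 2697 and 2820 under Pg (-0.43 ± 0.04). Csf1r, the M-CSF receptor, differed by -0.27 ± 0.03 and Adgre1, which encodes F4/80, by -0.12 ± 0.03.

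Genes of other macrophage states did not follow one direction. Among 17 tissue-resident type genes, 3 were higher and 6 lower. Folr2, folate receptor beta, was 16.4 to 27.1 in high and 8.46 to 13.9 in low libraries (1.17 ± 0.09), whereas the scavenger receptor Stab1 was at -0.40 ± 0.04. Of 22 scavenger, efferocytosis and Fc receptor genes 9 were higher and 6 lower, with Clec7a, the beta-glucan receptor, at 0.72 ± 0.05 and Marco at -0.68 ± 0.08. Of 15 genes of the GM-CSF response and alveolar-type macrophages 4 were higher and 4 lower. Of 14 alternative activation genes 4 were higher and 1 lower.

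Monocyte markers gave 3 higher and 5 lower of 17. Ccr2, the receptor that draws monocytes from marrow, was 47.7 to 64.8 CPM in the 6 high and 90.4 to 99.1 in the 6 low libraries (-0.82 ± 0.06), with no overlap in any group. Vcan, the matrix proteoglycan versican, was at -0.95 ± 0.17. The higher members were Ace, the angiotensin-converting enzyme (1.13 ± 0.27), Fn1 (1.12 ± 0.06) and Cxcr4 (0.31). The summed level of the monocyte list was 1070 to 1262 in high and 1053 to 1246 in low libraries. Outside the lists, Cd81, a tetraspanin among the 15 lowest genes, was 22.9 to 30.3 against 50.1 to 59.1 (-1.08 ± 0.06), and the metal-binding gene Mt2, also among them, was at -1.04 ± 0.11.

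Markers of other cell types were read in the same libraries. Over all tested genes 8.79% were called higher and 8.18% lower. The counts of the dendritic cell, B cell and stromal lists lie near those shares and are no result about their members. Of 19 dendritic cell markers 1 was higher and 2 lower, and their summed level was 1655 to 2254 in high and 1527 to 2219 in low libraries. Of 11 MHC class II genes 4 were higher and 0 lower, with Cd74 at 0.39 ± 0.06 and H2-Ab1 at 0.27 ± 0.07. The class II count was 2 without cKO Pg 3, and 2 when counts were scaled by library size alone. Of 18 neutrophil and granulocyte precursor markers 3 were higher (Mpo 0.57 ± 0.13, Elane 0.42 ± 0.07 and Cebpe 0.47) and 0 lower. Their summed level was 1193 to 1653 in high and 1146 to 1293 in low libraries. The Cebpe call was lost with DESeq2, with no low-count filter and without any 1 of 7 libraries, and the Mpo call without any 1 of 3. The list's count was 12 without cKO Pg 2, 5 without cKO Pg 1, and 1 without cKO Pg 3 or without cHet Pg 1. The part of these cells in any result was not tested.

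Erythroid and megakaryocyte markers gave 3 higher and 0 lower of 10. Their summed level did not overlap between classes, with 362 to 601 CPM in high and 224 to 349 in low libraries, and Car1 had no count in any library. The members that were higher were the platelet factor gene Pf4 (0.73 ± 0.05), which is also in the tissue-resident list, Ppbp (0.59) and Gp9 (0.58), while the globin genes Hba-a1 (-0.09) and Hbb-bs (-0.13) were not called. Pf4 alone was 239 to 460 in high and 134 to 245 in low libraries, so it made up much of the summed level. Whether the sum without Pf4 overlapped between classes was not examined. The Gp9 call was lost without any 1 of 5 libraries. The list's count was 1 without cHet control 1, in the Pg libraries alone and in the cKO libraries alone. The part of such cells in the results was not tested.

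Of 16 T and NK cell markers 4 passed the filter and 1 was higher (Nkg7), with a summed level of 213 to 343 CPM in high and 134 to 294 in low libraries. The Nkg7 call was lost with DESeq2, with no low-count filter, with the replicate number or continuous Itgax as a term and in each of the 4 subsets of libraries. It was also lost without cHet control 1 or 3, cHet Pg 1 or 3, cKO control 1 and cKO Pg 1 or 3. Of 10 B and plasma cell markers 1 was higher (Cd22, 0.88) and 1 lower (Ighm, -0.42 ± 0.04), and their summed level was 189 to 215 in high and 205 to 257 in low libraries. The mast cell list gave 0 of 8 in either direction with a summed level of 25.8 to 69.0 in high and 26.6 to 40.2 in low libraries, and Cma1 and Mcpt4 had no count in any library. Stromal genes gave 1 lower of 15 with a summed level of 18.6 to 98.1 in high and 18.2 to 93.3 in low libraries, and Lum had no count. In these bulk samples fewer cells of a type and less RNA per cell cannot be told apart.

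Inflammatory genes were higher in part. Of 20 chemokine genes 12 were higher and 0 lower, with a median of 0.34. Ccl6 was 449 and 493 CPM in the high and 317 to 364 in the low control libraries, and 588 to 630 against 477 and 518 under Pg (0.37 ± 0.04), and Ccl5 differed by 0.52 ± 0.07. In the cHet libraries alone 7 chemokine genes were higher. Of 20 cytokine genes 5 were higher and 0 lower, among them Tnf (0.48 ± 0.09) and Lif, a cytokine of the interleukin-6 family, which was 9.53 to 12.5 in high and 3.72 and 4.54 in low Pg libraries (1.28 ± 0.19). In controls Lif was at most 2.17 and its classes overlapped in 1 group. Of 11 costimulatory and checkpoint genes 2 were higher and 0 lower, beside 8.79% and 8.18% of all genes. The Vsir call (0.12) was lost in the control, cHet and cKO libraries alone and with the replicate number as a further term. It was also lost without cHet control 1 or cKO Pg 3. The Cd276 call (0.62) was lost in the cHet libraries alone. Of 23 glycolysis and hypoxia genes 2 were higher, near the share of all genes, and 5 lower. Of 13 mitochondrially encoded genes 0 were called in either direction.

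Whether the high-low gap differed under Pg was examined with an interaction term in edgeR. The class came from Itgax in the same libraries, so for genes that follow Itgax this term is not independent of the split. The signed gap, high minus low, was higher under Pg than in controls for 91 genes (0.659%) and lower for 252 (1.83%). Scaled by library size alone, the counts were 113 and 134. Of the 1213 genes higher in Itgax-high libraries, 12 had a higher and 40 a lower gap under Pg. Of the 1129 lower genes 6 had a higher and 29 a lower signed gap, and of the 11457 genes not called 73 and 183. More genes thus had a lower than a higher signed gap in every set. For a gene below 0 in both treatments, a lower signed gap is a larger difference. The 40 genes included the markers Mmp12, Cd36 and Atp6v0d2. Cd36 differed by 1.48 ± 0.05 on the log2 scale in controls and 0.97 ± 0.05 under Pg, a change of -0.51 ± 0.07 (adjusted p = 4.3e-06). Mmp12 went from 1.54 ± 0.07 to 1.10 ± 0.08 (change -0.44 ± 0.10, adjusted p = 0.048), Atp6v0d2 from 1.42 ± 0.05 to 1.07 ± 0.06 (adjusted p = 0.0082) and Acp5 from 1.33 ± 0.07 to 0.72 ± 0.06 (adjusted p = 8.6e-05). The gap in Itgax itself, from the values given at the opening, was also narrower in the Pg groups, and its part in these results was not tested. Without cHet control 1 the Mmp12 and Atp6v0d2 calls were lost, likewise without cKO control 1 and without cHet Pg 1, and the Mmp12 call was lost without cHet control 3 and without cKO Pg 3 as well.

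Of 11 MHC class II genes 2 had a higher signed gap under Pg and 0 a lower one. The gap in H2-Ab1 was 0.08 ± 0.06 in controls and 0.45 ± 0.06 under Pg (change 0.37 ± 0.08, adjusted p = 0.0076), and that in Cd74, the invariant chain, 0.24 ± 0.05 and 0.53 ± 0.05 (adjusted p = 0.028). The H2-Ab1 call was lost without cHet Pg 1 and without cKO control 1, and the Cd74 call without any 1 of 7 libraries. Both were lost with the replicate number as a further term. Among 21 immediate early genes, which respond within minutes to stimulation, 7 had a higher signed gap under Pg and 1 a lower one. Over all genes the shares were 0.659% and 1.83%. The high-low gap in Fos changed under Pg by 0.63 ± 0.09 (adjusted p = 2.1e-05) and that in Jun by 0.43 ± 0.07 (adjusted p = 0.00013). For Nr4a1 the change in gap was 0.92 ± 0.12 (adjusted p = 7.6e-05) and for Nr4a3 -0.81 ± 0.18 (adjusted p = 0.0063). Of 20 NRF2 antioxidant genes 1 had a higher and 7 a lower gap, among them the cystine transporter gene Slc7a11 (-0.60 ± 0.07, adjusted p = 7.7e-07) and Hmox1, heme oxygenase 1 (-0.41 ± 0.07, adjusted p = 0.00023). For the immediate early and NRF2 genes named here, the dependence on single libraries, the replicate number and the scaling was not checked. Over all genes such calls fell from 343 to 128 without cHet control 1, and to 158 with the replicate number as a further term.

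A pair of genes named after their values were seen showed a gap that was present in one treatment alone or turned. Il1rn, the interleukin-1 receptor antagonist, was 76.7 and 95.3 CPM in the high and 46.8 to 60.1 in the low control libraries, but 705 to 739 against 797 and 925 under Pg. The gap was 0.71 ± 0.06 in controls and -0.25 ± 0.05 under Pg (change -0.96 ± 0.07, adjusted p = 4.3e-11). Il4ra, the interleukin-4 receptor alpha chain, was 222 and 225 against 216 to 232 in controls and 357 to 484 against 688 and 843 under Pg. Its gap was -0.02 ± 0.05 in controls and -0.82 ± 0.05 under Pg (change -0.80 ± 0.07, adjusted p = 2.7e-09). Both calls held without each library in turn.

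**Figure D5:**
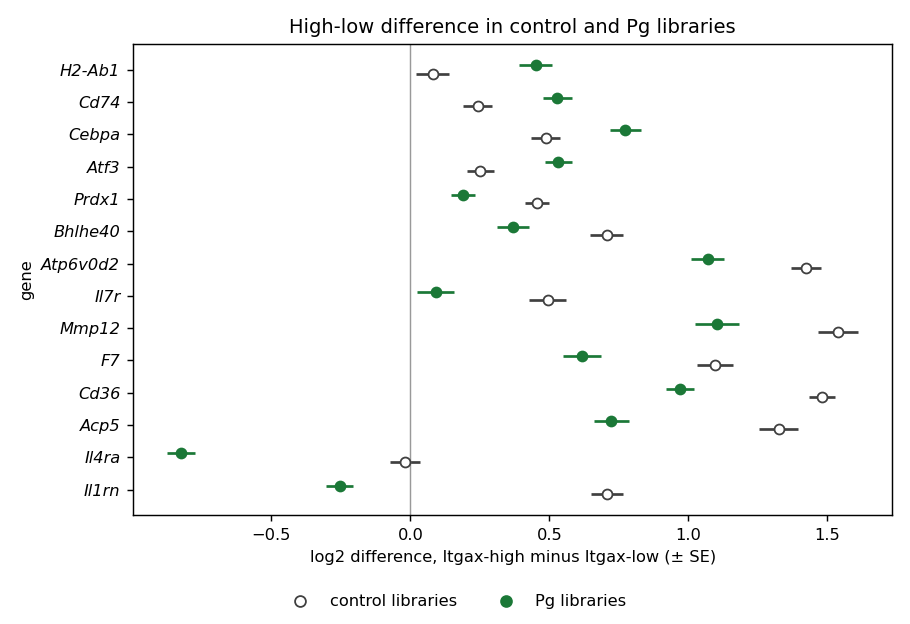
Log2 difference between Itgax-high and Itgax-low libraries (± SE) in the control libraries (open) and in the Pg libraries (filled) for the 14 named genes whose difference changed with Pg at an adjusted p below 0.05. Il1rn lies at 0.71 in controls and -0.25 under Pg, and Cd36 at 1.48 and 0.97.

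Between genotypes the high-low gap differed for 2 genes (0.0145%), while 466 had an unadjusted p below 0.05 in edgeR. Ly6a, a surface antigen of the Ly6 family, was 32.2 against 21.5 and 21.0 CPM in cHet control and 40.9 and 35.3 against 29.6 in cHet Pg. In cKO the order was reversed, with 17.2 against 31.9 and 39.8 in controls and 18.9 and 16.9 against 25.2 under Pg. The gap in cKO minus that in cHet was -1.27 ± 0.17 (adjusted p = 0.0048). Ly6e, a related gene on the same chromosome, changed likewise by -0.45 ± 0.07 (adjusted p = 0.0092). With the replicate number as a further term 0 genes passed. Only 1 of the 2 calls held without cHet control 1, without cHet Pg 1, 2 or 3 and without cKO Pg 3, each left out singly.

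The study's own contrasts were fitted with and without the class. With the class in the fit, 3545 genes (25.7%) rose and 3634 (26.3%) fell under Pg, and 6518 in all passed without it. Scaled by library size alone, 1683 rose and 7246 fell, and the median log2 change of all genes was shifted by -0.24, so Pg changes here are relative to the TMM scale. Between genotypes 651 genes (4.72%) were higher and 875 (6.34%) lower in cKO, and 677 passed without the class. Fn1 differed by -0.63 ± 0.06 in cKO with the class (adjusted p = 1.8e-08) and by -0.66 ± 0.37 without it (adjusted p = 0.44). Of the 1213 genes higher in Itgax-high libraries 411 rose and 314 fell under Pg, and of the 1129 lower genes 508 rose and 214 fell. Of the first set 75 were higher and 185 lower in cKO, and of the second 96 and 110. The class was chosen from these counts, so a fit that holds it can understate the error of the other contrasts.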

How the data were processed

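Poly-A RNA of 12 mouse macrophage libraries was measured by RNA sequencing. The values deposited by the authors are unscaled counts of reads, 1 row a gene, with positions in build mm10. They were made with featureCounts 1.5.0-p3 after fastp and HISAT2 2.0.5, per the submitters' processing notes. Not given in the sources used here are the annotation release, the strand setting and how multi-mapping reads were handled, so overlapping, antisense and near-identical genes can share reads. The 12 columns were matched to samples by title, and 0 columns were left unused.

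Libraries with at least 75 Itgax CPM of the column total were called Itgax-high. The classes, gene lists and members were chosen with earlier results of these data known. All 54532 genes were filtered with filterByExpr on the 4 groups (minimum count 10), TMM-scaled and fitted in R 4.3.3 with edgeR 4.0.16 (glmQLFit and glmQLFTest, limma 3.58.1 alongside) with terms for the 4 groups and the class; interaction terms were added for treatment or genotype. Adjusted p-values are Benjamini-Hochberg over all genes tested, with Itgax left out of every count. Pg and genotype contrasts are averages over the other factor. The code was tested on simulated data.

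Genes named with values per library were the 4 markers, Itga9, Lyz2, Itgb1 and Itgb2, up to 15 genes at each end of the class difference (mean log2 CPM of at least 1, the same sign in 4 groups), and up to 4 called genes of smallest p from each of the 33 lists, filled up to 2 with the most abundant. Il1rn, Il4ra, Ly6a, Ly6e and members outside this rule that are named with a difference alone were chosen after their values were seen. Some genes that meet the rule are not reported here. The alternatives were other scalings and filters, DESeq2 1.42.0, the replicate number as a block, a continuous Itgax term, subsets of libraries and leaving out each library. Same-numbered libraries of different groups deviated together in some pairs and apart in others (18 pairs, r from -0.290 to 0.318, 5 above 0.1). With the class removed r ran from -0.224 to 0.369, with 3 above 0.1. Numbers were not taken to pair samples in the main fits, and the replicate block is given as an alternative. Library totals of 14527674 to 16793803 counts limit low genes.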

Additional observations from a re-analysis of the deposited data

Results flagged for a closer look

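For 14 named genes the gap between Itgax-high and Itgax-low libraries under Pg differed from that in controls by the interaction test (edgeR, adjusted p below 0.05). The class came from Itgax in the same libraries. For genes that follow Itgax, such as the markers Mmp12, Cd36 and Atp6v0d2, the term is therefore not independent of the split. The Itgax gap was itself narrower under Pg, and its part was not tested. The change in log2 gap was -0.44 for Mmp12, -0.51 for Cd36, -0.35 for Atp6v0d2, -0.48 for F7, -0.60 for Acp5, -0.34 for Bhlhe40, -0.40 for Il7r and -0.27 for Prdx1. It was 0.29 for Cd74, 0.37 for H2-Ab1, 0.29 for Cebpa and 0.28 for Atf3. Il1rn (-0.96) and Il4ra (-0.80) were picked for their interaction after the values were seen. Without cHet control 1 the call was lost for 9 of the 14 genes, without cKO control 1 for 8 and without cHet Pg 1 for 7. The control groups held 1 Itgax-high library each and the Pg groups 1 Itgax-low library each, so each gap rests on 1 library on one side of each group.

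For 2 genes the gap differed between genotypes: Ly6a by -1.27 and Ly6e by -0.45 in cKO minus cHet. Both were found by screening all genes for this term, and they lie on chromosome 15 at 74994877 to 74998031 and 74955051 to 74959905.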

How the results depend on the processing

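The class calls numbered 2342 in all, 1240 in the cHet libraries alone, 921 in the cKO libraries alone and 1721 to 2302 when each library was left out in turn. With the replicate number as a block there were 1899, and with DESeq2 2050. The Cacnb3 difference turned from -0.54 to 0.055 in the control libraries alone. For the gap under Pg, 343 genes passed; 158 passed with the replicate block, and leaving out a library gave 128 (without cHet control 1) to 346, with 145 without cKO Pg 3, 150 without cKO control 1 and 228 without cKO Pg 1. For the gap between genotypes, 2 genes passed, 11 with no filter on low counts, 0 with the replicate block and 1 to 13 when a library was left out, 13 of them without cKO control 1. Between genotypes 1526 genes passed and 677 without the class, with 1243 to 1469 over left-out libraries; for Pg the range was 6439 to 7114. Of the 14 named genes whose gap changed with Pg, 4 lost the call with library size alone (Mmp12, Bhlhe40, Il7r and Prdx1), 5 with the replicate block and 1 with DESeq2 (Mmp12). The cause of these changes was not tested. Fits on fewer libraries have fewer degrees of freedom, and the part of this was not tested either. Depth limits genes of few counts, and 3 libraries a group leave 1 on one side of the split.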

Other observations

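Among the genes with the largest differences between classes were several with no member in the lists described. Fabp7, a brain-type fatty acid carrier, was 10.4 CPM against 3.32 and 1.99 in cHet control and 10.3 and 9.24 against 3.86 in cHet Pg, high libraries first. In cKO it was 5.12 against 1.93 and 2.04 in controls and 2.42 and 3.34 against 1.65 under Pg, a log2 difference of 1.47 ± 0.16. Vsig8, an immunoglobulin-domain gene, was 4.09 to 5.12 in the 6 high and 1.18 to 2.68 in the 6 low libraries (1.55 ± 0.18). At the other end, Olfm1, Aldoc, Klk1b11, Cuedc1 and Arfgef3 were among the 15 lowest.

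Heat shock genes gave 5 higher and 0 lower of 15, with Hsp90aa1 at 0.28 and Hspd1 at 0.33. Hspa1a and Hspa1b are near-identical copies whose reads cannot be separated with certainty. Of 17 chemoattractant receptor genes 5 were higher, among them Cmklr1 (0.51) and Cxcr4 (0.31), and 3 were lower, Ccr2, Fpr2 (-0.47) and Fpr1 (-0.22).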
